A study of Mus musculus with 88 samples.

Results

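Wild-type (WT) mouse embryonic stem cells of the E14 line were compared before and 5 h after the start of directed differentiation toward mesoderm. The comparison takes 4 of the 88 samples of the series, namely 2 undifferentiated and 2 5 h bulk RNA libraries, chosen by their labels and not by any measured value. The undifferentiated cells were grown in medium with serum and leukemia inhibitory factor (LIF). The 5 h cells had been washed and given the mid primitive streak medium, which holds Activin A, BMP4, the GSK3 inhibitor CHIR99021, and FGF2. No allele was altered in either group. The authors describe the duplicates as technical, so the p-values measure only the spread between duplicate libraries, pooled over the 24 libraries of the mesoderm series. Each group stands for 1 line. Whether that medium held serum or LIF is not stated for this protocol. The change of medium and the added factors came together, so an effect of a factor and any effect of leaving the former medium cannot be told apart. In bulk RNA, a lower level in every cell and fewer cells of a kind cannot be told apart either.

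The mid primitive streak medium acts on the signals that pattern the early embryo. Wnt signals, mimicked by CHIR99021, stabilize β-catenin, which works with TCF/LEF factors and turns on feedback genes such as Axin2. Activin and Nodal act through SMAD2/3 and BMP through SMAD1/5/9, whose direct targets include the Id genes, while FGF acts through ERK. Together these signals turn on primitive streak regulators such as T (Brachyury), Eomes, and Mixl1. LIF acts through STAT3 and supports the naive pluripotent state. Stem cells in serum and LIF also make much use of glycolysis, whose enzyme genes are shared with the hypoxia response driven by HIF-1.

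The 4 libraries held 10144649 to 11830324 counts. All 6 stem cell markers examined, Pou5f1, Sox2, Nanog, Esrrb, Zfp42, and Klf4, were above 100 CPM (counts scaled to a common library size) in each of the 4 libraries, with the lowest value, 120 CPM, for Klf4 in undifferentiated replicate 2. Of the streak markers examined, T and Mixl1 stayed below 2 CPM in each library, while Eomes was above 2 CPM in each. Eomes was higher in both 5 h libraries but just missed the limit, as given below with the streak regulators. The label of the series names mesoderm, but the 5 h cells are described here by their time and medium. Of 15 later mesoderm genes 9 could be tested, and none was called, against 4.13% of all genes. That list summed to 15.8 to 20.1 CPM in the 4 libraries, so the count does not tell what the cells are. Undifferentiated replicate 2 stood apart from replicate 1 in GC content: relative to replicate 1, the median log2 ratio was 0.20 in the lowest and −0.20 in the highest of 5 classes of GC. The undifferentiated WT libraries of the mesoderm and endoderm series deviated together by replicate number, with a correlation across 10363 genes of 0.62 between the replicate differences of the series, against 0.038 at 5 h. In undifferentiated Mtf2 null and Jarid2 null cells this correlation was 0.57 and 0.62. It was also 0.42 in both at 48 h, and −0.52 in Mtf2 null cells at 24 h. The other groups lay between −0.21 and 0.038. Whether the undifferentiated libraries of the series share cells or RNA is not given in the sources used here, so no overlap between the series is given as support. The fit over both series reported below does take the undifferentiated libraries as independent, a limit stated there.

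At 5 h, 421 of 18361 genes tested were called higher (2.29%) and 338 were called lower (1.84%), by edgeR's quasi-likelihood test with limits of 0.001 for the adjusted p and 1 for the size of the log2 fold change. These are 759 genes in all (4.13%). Genes called higher rose by a median of 2.21-fold and genes called lower fell by a median of 2.67-fold. In each called gene the libraries of the groups did not overlap, as was so for 32.7% of all genes tested in the higher and 34.9% in the lower direction. The largest changes at a mean of at least 5 CPM were a rise of Fst, which encodes the activin-binding protein follistatin, and a fall of Ndufa4l2, a mitochondrial protein gene of the hypoxia response. Of the called genes, 115 higher and 71 lower ones were lost under none of 8 other settings, which were DESeq2, RLE scaling, a GC offset, the replicate block, and the removal of each of the 4 libraries.

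The counts depended on single libraries and on scaling. Without undifferentiated replicate 2, 135 genes were called higher and 136 lower, and without undifferentiated replicate 1 the counts were 906 and 306. Without 5 h replicate 1 they were 415 and 158, and without 5 h replicate 2 they were 309 and 121. With the library totals as scale, the median log2 fold change of all genes moved from −0.08 to −0.21, and the split of 421 higher to 338 lower became 206 to 452. The median log2 fold change was −0.47, −0.11, 0.05, 0.10, and 0.08 in 5 classes of genes from the lowest to the highest GC. With a GC offset the calls were 318 higher and 369 lower. Calls lost with that offset are given with the genes.

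**Figure D1:**
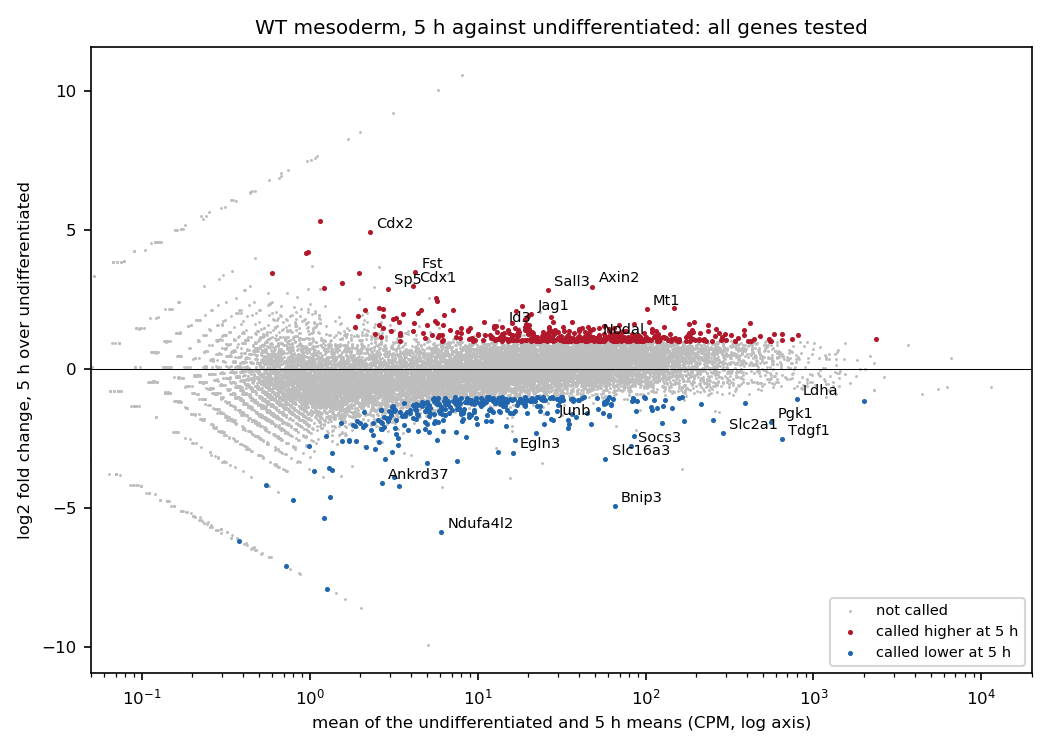
Log2 fold change at 5 h over undifferentiated against the mean level in CPM (log axis) of 18361 genes in the WT mesoderm libraries, each point a gene, with 421 genes called higher in red and 338 called lower in blue. Bnip3 and Ndufa4l2 lie lowest among the labelled genes, and Cdx2 lies highest.

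Of 19 tested Wnt/β-catenin target and feedback genes, 5 rose, against 2.29% of all genes, and none was called lower. The count was 4 with library totals or the GC offset, and 2 of 15 in a fit of the 4 WT libraries alone. The median log2 fold change of the list was 0.82, against −0.08 over all genes tested. Axin2, which encodes a scaffold of the β-catenin destruction complex, was at 12.5 and 9.37 CPM in the undifferentiated libraries and at 82.2 and 88.6 CPM at 5 h. The groups did not overlap, and the log2 fold change was 2.97 ± 0.12 (SE, adjusted p = 9.7e-12). Axin2 (ENSMUSG00000000142) lies on chromosome 11 of GRCm38, from 108920349 to 108950783. Sp5, a zinc finger repressor that acts downstream of β-catenin, rose from 0.887 and 0.511 CPM to 5.33 and 5.01 CPM (log2 fold change 2.89 ± 0.32, adjusted p = 4.2e-06). Both 5 h libraries of Sp5 lay far above both undifferentiated ones. Cdx1, a caudal homeobox gene of the streak, rose from 0.591 and 1.19 CPM to 5.51 and 9.19 CPM (log2 fold change 2.99 ± 0.31, adjusted p = 2.5e-06), and its 5 h libraries differed more from each other than those of Axin2.

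Tnfrsf19, a receptor of the TNF family, rose from 2.46 and 2.73 CPM to 10.3 and 9.82 CPM (log2 fold change 1.95 ± 0.27, adjusted p = 2.3e-05). Znrf3, a ubiquitin ligase that removes Wnt receptors, rose from 19.3 and 18.7 CPM to 42.9 and 39.8 CPM (log2 fold change 1.12 ± 0.13, adjusted p = 3.1e-06). With the GC offset Znrf3 had a log2 fold change of 0.99, just inside the limit of 1, and was not called. Other genes of the list were not called. Lef1, a TCF/LEF factor, was at 1.58 and 1.19 CPM before and 2.44 and 2.19 CPM at 5 h (log2 fold change 0.75 ± 0.40, adjusted p = 0.15). Tcf7 had a log2 fold change of 0.66 ± 0.14 (adjusted p = 0.0011) and Ccnd1, a G1 cyclin, one of 0.72 ± 0.14 (adjusted p = 0.00069), both under the fold limit. Myc was at 40.6 and 33.4 CPM before and 35.1 and 32.6 CPM at 5 h, and its log2 fold change of −0.12 ± 0.19 was within the error (adjusted p = 0.64). Without undifferentiated replicate 2 the list kept its count of 5 genes called higher.

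The TCF/LEF motif CTTTGAT was searched on both strands in the 250 bases before the gene start, in RefSeq promoters of GRCm38.p6 that matched 11861 of 18337 tested symbols. It was found in 10 of 335 promoters of genes called higher (2.99%), in 1 of 246 of genes called lower (0.407%), and in 2.31% of all. Among the 13 promoters of Wnt list members, 1 held it, that of Sp5. It is shown because Sp5 is the called Wnt gene with such a match, on chr2:70474673-70474922 of the plus strand, with the motif in capitals, starting 104 bases before the gene start.
Sp5: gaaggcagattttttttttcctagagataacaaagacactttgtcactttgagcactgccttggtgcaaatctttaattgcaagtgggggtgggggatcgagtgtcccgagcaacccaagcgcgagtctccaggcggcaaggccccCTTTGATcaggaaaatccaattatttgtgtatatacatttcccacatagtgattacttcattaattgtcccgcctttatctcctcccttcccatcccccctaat

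**Figure D2:**
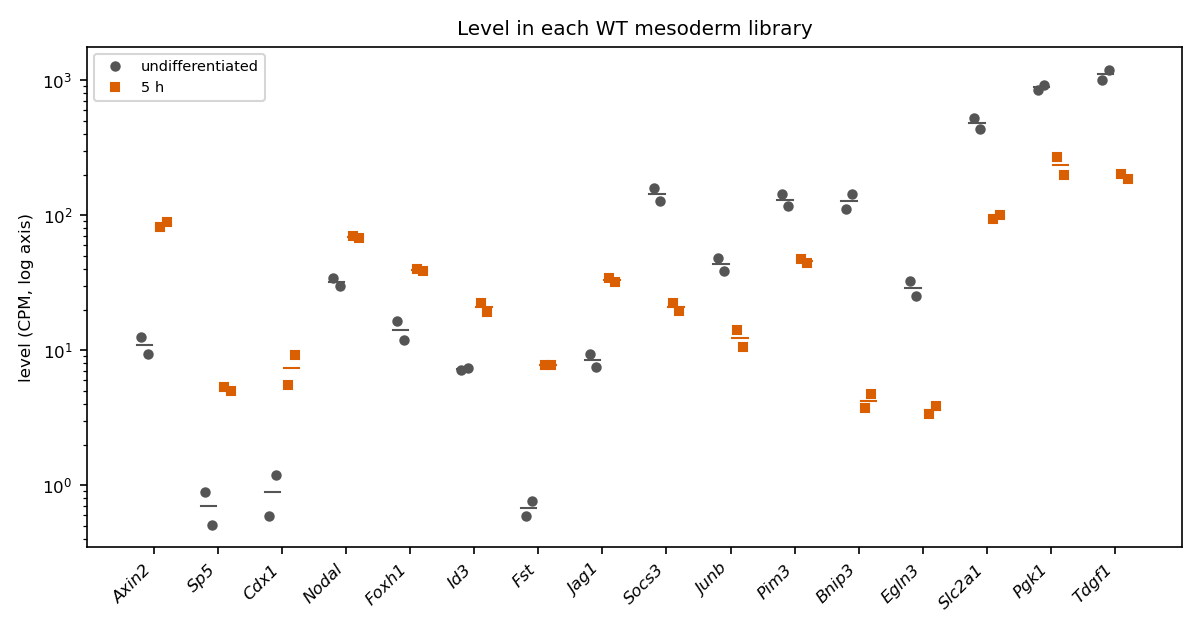
Level in CPM (log axis) of 16 genes in each of the 2 undifferentiated and 2 5 h WT mesoderm libraries, with points for libraries and short lines for means. In each of these genes both 5 h libraries lie on the same side of both undifferentiated ones, above them from Axin2 to Jag1 and below them from Socs3 to Tdgf1.

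Nodal pathway genes moved in both directions. Nodal, the ligand that induces streak fates, rose from 34.5 and 29.8 CPM to 70.2 and 68.3 CPM (log2 fold change 1.11 ± 0.13, adjusted p = 4.8e-06). With the GC offset its log2 fold change was 0.92, under the limit of 1. Foxh1, the DNA-binding partner of SMAD2/3, rose from 16.4 and 11.8 CPM to 39.8 and 38.4 CPM (log2 fold change 1.48 ± 0.21, adjusted p = 2.3e-05). Without undifferentiated replicate 2, Foxh1 had a log2 fold change of 1.26 (adjusted p = 0.0021) and was not called. Tdgf1, which encodes the Nodal coreceptor Cripto, went the other way, from 1013 and 1196 CPM to 204 and 184 CPM (log2 fold change −2.51 ± 0.19, adjusted p = 2.4e-08). Its copy Tdgf1-ps1, named for the shared sequence, had a log2 fold change of −2.39, and the counting could split reads between these copies, so each level is uncertain.

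The feedback inhibitors Lefty1 and Lefty2 were not called. Lefty1 was at 58.3 and 36.6 CPM before and 39.8 and 38.0 CPM at 5 h, so the groups overlapped, and Lefty2 had a log2 fold change of −0.43 ± 0.22 (adjusted p = 0.13). Of 11 tested genes of the Nodal/activin list, 2 were called higher and 1 lower, against 2.29% and 1.84% of all genes. The median log2 fold change was 0.07. The count called higher was 1 with library totals or the GC offset and 3 with DESeq2 or RLE scaling. Fst, outside the list and named as the largest rise, went from 0.591 and 0.767 CPM to 7.77 and 7.83 CPM (log2 fold change 3.49 ± 0.31, adjusted p = 3.1e-07). Both 5 h libraries of Fst lay far above both undifferentiated ones.

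Primitive streak regulators were mostly at low levels at 5 h, and 4 of them rose. Of 12 tested genes of that list, 4 were called higher, namely Nodal, Cdx1, Wnt3, and Cdx2, against 2.29% of all genes. None was called lower, and the median log2 fold change was 1.39. The count called higher was 3 with DESeq2, library totals or the GC offset and 5 with RLE scaling. It was 2 of 7 in a fit of the 4 WT libraries alone. Cdx1 is also in the Wnt list, Nodal in the Nodal/activin list, and Cdx2 in the BMP and trophoblast lists. Wnt3, the ligand needed for streak formation, had counts of 0 and 1 in the undifferentiated libraries and 21 and 25 at 5 h. The ratio of its summed counts per library size was 48.8, with an exact 95% interval of 8.33 to 1967 that covers counting error only. Cdx2, a caudal homeobox gene also used in trophoblast, had counts of 1 and 2 before and 58 and 35 at 5 h, a ratio of 32.9 (10.9 to 162). Without undifferentiated replicate 1 or 2, Wnt3 was not called, with adjusted p of 0.001 and 0.0014.

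T itself was not called. It had counts of 2 and 2 before and 10 and 16 at 5 h, or 0.197 and 0.17 against 0.903 and 1.67 CPM (log2 fold change 2.72 ± 0.80, adjusted p = 0.012). Eomes, the T-box gene of the anterior streak, was at 4.14 and 2.21 CPM before and 7.41 and 7.21 CPM at 5 h, and just missed the limit (log2 fold change 1.22 ± 0.26, adjusted p = 0.001). Mixl1 was between 0.394 and 0.94 CPM in all 4 libraries (adjusted p = 0.36).

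BMP target genes did not move as 1 group. Of 19 tested genes 3 were called higher and 2 lower, against 2.29% and 1.84% of all genes, with a median log2 fold change of 0.08 that was −0.03 with library totals. Id3, an inhibitor of basic helix-loop-helix factors, rose from 7.1 and 7.33 CPM to 22.2 and 19.3 CPM (log2 fold change 1.53 ± 0.19, adjusted p = 8.3e-06). Id1, of the same family, was at 77.9 and 76.3 CPM before and 41.6 and 45.5 CPM at 5 h (log2 fold change −0.82 ± 0.16, adjusted p = 0.00041), so its fall was below the fold limit. Id2 fell from 13.1 and 15.0 CPM to 7.59 and 6.16 CPM (log2 fold change −1.03 ± 0.20, adjusted p = 0.00048), a call that was lost on removal of any of the 4 libraries, with adjusted p from 0.0013 to 0.014, and with the GC offset. Within the Id family, genes were thus measured on either side of 0.

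Id4 rose from 1.28 and 1.96 CPM to 3.61 and 3.76 CPM (log2 fold change 1.16 ± 0.22, adjusted p = 0.00048) and was likewise lost on removal of any library, with adjusted p from 0.0018 to 0.017. Smad6, an inhibitory SMAD, fell from 5.32 and 3.15 CPM to 1.08 and 1.46 CPM (log2 fold change −1.73 ± 0.30, adjusted p = 0.0002). Without undifferentiated replicate 1 or either 5 h library Smad6 was not called, with adjusted p of 0.0042, 0.0074, and 0.0018. Msx2, a homeobox gene induced by BMP, was at 0.69 and 1.19 CPM before and 2.08 and 2.61 CPM at 5 h (log2 fold change 1.28 ± 0.35, adjusted p = 0.008). The gene of the ligand BMP4 was between 36.2 and 48.2 CPM in the 4 libraries (adjusted p = 0.51).

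Of 16 tested FGF/ERK feedback genes 2 were called higher, Il17rd and Fosl1, against 2.29% of all genes, and none lower, with a median log2 fold change of 0.34. Dusp6, an ERK phosphatase, was at 55.1 and 44.0 CPM before and 53.4 and 43.2 CPM at 5 h (log2 fold change −0.03 ± 0.14, adjusted p = 0.88), and the values of the groups interleaved. Spry4 had a log2 fold change of −0.42 ± 0.14 and Etv4, an ETS factor, one of 0.52 ± 0.18, with adjusted p of 0.022 and 0.027. Il17rd, an FGF receptor antagonist, went from 48.3 and 37.4 CPM to 82.5 and 88.7 CPM, with a log2 fold change of 1.00 ± 0.12 that lay at the limit (adjusted p = 7.5e-06). It fell below the limit with the GC offset, at 0.87, and without undifferentiated replicate 2, at 0.83, or 5 h replicate 2, at 0.96. Fosl1, a FOS family gene, had CPM of 0 and 0.17 before and 2.26 and 1.36 at 5 h, and was not called on removal of any library, with adjusted p from 0.0018 to 0.011.

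Among 17 tested immediate early genes, Atf3 was called higher and Ier3 and Junb lower, against 2.29% and 1.84% of all genes. The median log2 fold change was 0.09. Atf3, a stress-induced factor, went from 1.48 and 2.04 CPM to 9.48 and 9.92 CPM (log2 fold change 2.44 ± 0.41, adjusted p = 0.00014). On removal of any library Atf3 kept a log2 fold change between 2.25 and 2.71 but had adjusted p from 0.0012 to 0.0033. Ier3, a gene of the early growth factor response, went from 14.5 and 13.0 CPM to 1.63 and 1.15 CPM (log2 fold change −3.29 ± 0.28, adjusted p = 1.8e-07). Fos was below 2 CPM in all 4 libraries (adjusted p = 0.45), and Egr1, at 6.6 and 5.2 CPM before and 1.99 and 1.78 CPM at 5 h, just missed the limit (log2 fold change −1.63 ± 0.35, adjusted p = 0.0012).

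LIF/STAT3 target genes split into genes that fell and genes that were not called. Of 14 tested, 4 were called lower, against 1.84% of all genes, and none higher, with a median log2 fold change of −0.20. Socs3, the feedback inhibitor of the LIF receptor pathway, fell from 160 and 128 CPM to 22.5 and 19.4 CPM (log2 fold change −2.77 ± 0.15, adjusted p = 4.3e-10). Pim3, a kinase gene, fell from 143 and 116 CPM to 47.6 and 44.6 CPM (log2 fold change −1.49 ± 0.14, adjusted p = 5.1e-07). Junb, an AP-1 subunit, fell from 48.4 and 38.8 CPM to 14.1 and 10.6 CPM (log2 fold change −1.82 ± 0.22, adjusted p = 5.1e-06). In these 3 genes every 5 h library lay below every undifferentiated one. Bcl3 fell from 37.2 and 27.0 CPM to 14.1 and 16.7 CPM (log2 fold change −1.06 ± 0.18, adjusted p = 0.00015), but not past the limits without undifferentiated replicate 1, at −0.80, or without 5 h replicate 1 or 2, with adjusted p of 0.0064 and 0.0014.

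The LIF targets that encode pluripotency factors were not called lower. Klf4 was at 171 and 120 CPM before and 179 and 173 CPM at 5 h (log2 fold change 0.27 ± 0.15, adjusted p = 0.16). Tfcp2l1 was at 352 and 231 CPM before and 574 and 575 CPM at 5 h, and its log2 fold change of 0.98 ± 0.16 was just under the limit (adjusted p = 0.00011). The STAT motif TTCNNNGAA was found in 5.82% of all promoters, 8.54% of those of genes called lower, and 5.97% of those of genes called higher. Among 13 promoters of the LIF list, those of Sgk1 and Socs3 held it. The Socs3 promoter is shown because Socs3 is the strongest fall of the list, at chr11:117969367-117969616 on the minus strand, with the motif in capitals 154 bases before the gene start.
Socs3: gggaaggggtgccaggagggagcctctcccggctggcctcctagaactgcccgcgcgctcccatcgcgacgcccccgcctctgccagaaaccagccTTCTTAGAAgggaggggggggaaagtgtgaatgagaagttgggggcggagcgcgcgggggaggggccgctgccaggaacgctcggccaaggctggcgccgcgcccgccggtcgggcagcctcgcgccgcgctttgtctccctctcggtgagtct

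Of 16 naive pluripotency genes none was called, and of 9 core pluripotency genes 1 was, Tdgf1, against 4.13% of all genes. Without undifferentiated replicate 1, 6 of the 16 naive and 3 of the 9 core genes were called higher, with list medians of 0.56 and 0.45 in place of 0.26 and 0.26. Nanog was at 412 and 441 CPM before and 267 and 254 CPM at 5 h, with a log2 fold change of −0.71 ± 0.12 (adjusted p = 0.00013) that did not reach the fold limit. Esrrb went the other way, from 447 and 286 CPM to 665 and 687 CPM, with 0.88 ± 0.16 (adjusted p = 0.00034), again inside the limit. Both groups of either gene were apart, but the undifferentiated replicates of Esrrb differed by more than its 5 h replicates. Pou5f1, which encodes OCT4, was at 938 and 742 CPM before and 994 and 1016 CPM at 5 h (log2 fold change 0.26 ± 0.15, adjusted p = 0.2). Sox2 was at 213 and 157 CPM before and 158 and 160 CPM at 5 h (log2 fold change −0.22 ± 0.13, adjusted p = 0.22), and Zfp42 had a log2 fold change of 0.15 ± 0.14 (adjusted p = 0.42).

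Formative epiblast genes were called in both directions, 1 higher and 2 lower of 13, against 2.29% and 1.84% of all genes. Dnmt3b, a DNA methyltransferase, was at 104 and 86.3 CPM before and 190 CPM in both 5 h libraries (log2 fold change 1.00 ± 0.11, adjusted p = 2.9e-06), at the edge of the limit. It was not called with the GC offset, at 0.85, or without undifferentiated replicate 2, at 0.88. Pou3f1, which encodes the neural and epiblast factor OCT6, fell from 6.31 and 8.35 CPM to 2.26 and 2.92 CPM (log2 fold change −1.51 ± 0.28, adjusted p = 0.00032). Its call was lost without undifferentiated replicate 2 (adjusted p = 0.011) and without 5 h replicate 1 (adjusted p = 0.011) or 2 (adjusted p = 0.0026). Zic5 fell from 20.3 and 16.0 CPM to 7.86 and 8.04 CPM (log2 fold change −1.19 ± 0.17, adjusted p = 2.3e-05), with −1.0, at the limit and not called, without undifferentiated replicate 1. Otx2 was between 2.04 and 2.72 CPM in all 4 libraries (adjusted p = 0.83), and Fgf5 was at or below 0.271 CPM, so no change was detectable at this depth.

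**Figure D3:**
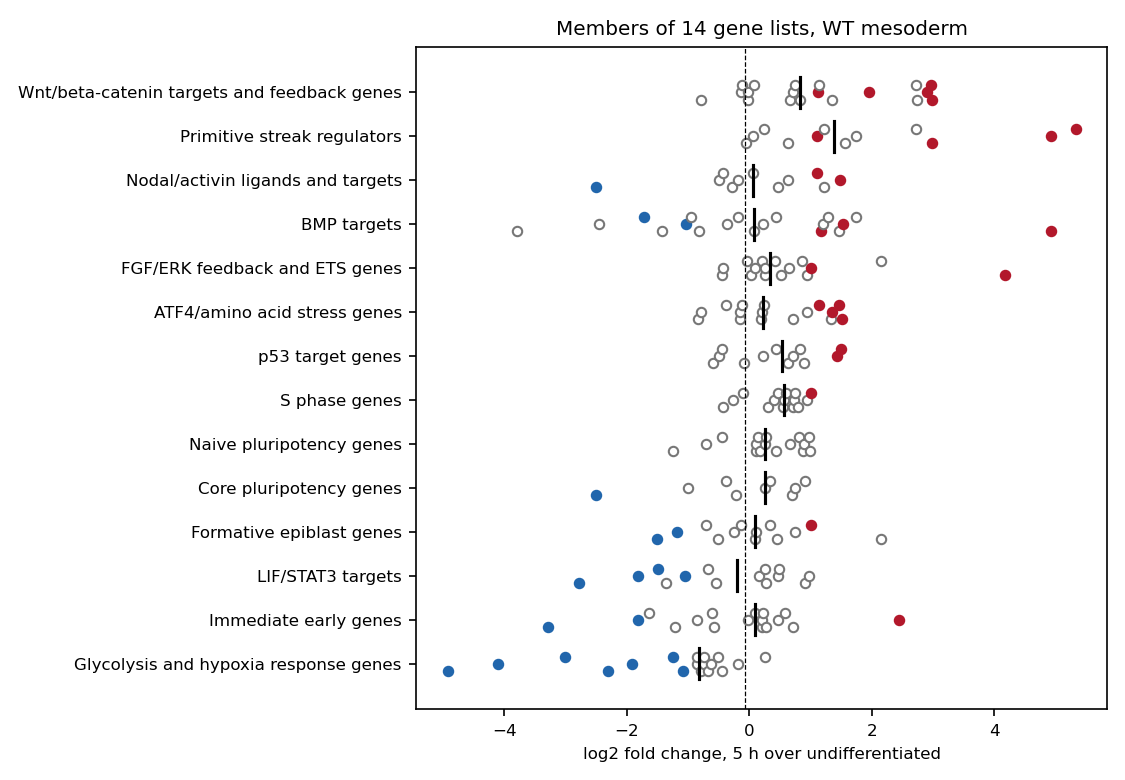
Log2 fold change at 5 h over undifferentiated of the tested members of 14 gene lists in WT mesoderm, with red points called higher, blue points called lower, open points not called, black bars for list medians and a dashed line for the median of all genes tested, −0.08. The glycolysis and hypoxia list lies farthest to the left, with a median of −0.82, and the primitive streak list farthest to the right, with 1.39.

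Of 18 tested glycolysis and hypoxia response genes, 7 were called lower, against 1.84% of all genes, and none was called higher. At an adjusted p under 0.05 without a fold limit, 14 of the 18 were lower, against 2843 of all 18361 genes tested. The median log2 fold change was −0.82. The count of genes called lower ran from 6, with DESeq2 or in a fit of the 4 WT libraries alone, to 8, without undifferentiated replicate 2 or with the GC offset. Bnip3, a mitophagy receptor of the BCL2 family and a HIF-1 target, fell from 111 and 143 CPM to 3.70 and 4.70 CPM (log2 fold change −4.92 ± 0.25, adjusted p = 1.1e-10), a 30.3-fold fall. Egln3, a prolyl hydroxylase that marks HIF for removal, fell from 32.6 and 25.2 CPM to 3.34 and 3.87 CPM (log2 fold change −3.0 ± 0.21, adjusted p = 1.7e-08). Ankrd37, a HIF-1 target of unsettled function, fell from 4.43 and 5.79 CPM to 0.361 and 0.209 CPM (log2 fold change −4.10 ± 0.50, adjusted p = 5.9e-06). No library of any of these 3 genes fell between the groups.

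The glucose transporter and enzyme genes fell less far. Slc2a1, which encodes the glucose transporter GLUT1, fell from 522 and 435 CPM to 93.5 and 99.8 CPM (log2 fold change −2.31 ± 0.11, adjusted p = 9.7e-11). Pgk1, phosphoglycerate kinase on chromosome X, fell from 843 and 926 CPM to 271 and 198 CPM (log2 fold change −1.91 ± 0.17, adjusted p = 2.1e-07). Pfkp, a phosphofructokinase, fell from 299.8 and 305 CPM to 122 and 133 CPM, and Ldha, lactate dehydrogenase, from 1128 and 1035 CPM to 514 and 507 CPM, with log2 fold changes of −1.24 ± 0.12 and −1.08 ± 0.13. The enzyme genes Pkm, at −0.73 ± 0.13, and Pfkl, at −0.86 ± 0.14, had adjusted p of 0.0002 and 0.00012 but stayed inside the fold limit. Hk1, a hexokinase that is not a typical HIF target, had a log2 fold change of 0.25 ± 0.15 (adjusted p = 0.21).

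Outside the list, Slc16a3 and Ndufa4l2 were among the 15 largest falls. Slc16a3, which encodes the lactate exporter MCT4, fell from 115 and 93.4 CPM to 12.3 and 9.61 CPM (log2 fold change −3.24 ± 0.20, adjusted p = 1.6e-09). Ndufa4l2 fell from 15.5 and 8.43 CPM to 0.0903 and 0.313 CPM (log2 fold change −5.86 ± 0.59, adjusted p = 9.8e-07). The core letters of the hypoxia response element, ACGTG, a motif added after the data were seen, were found on either strand in 6 of the 7 list promoters called lower, in 8 of 16 list promoters, in 25.2% of promoters of genes called lower, in 24.2% of those called higher, and in 21.2% of all. A match of 5 letters is frequent and is given as a description. The promoters of 4 genes that fell are shown with each match in capitals, Bnip3 at chr7:138909507-138909756 on the minus strand, where the 2 matches overlap on opposite strands, Ankrd37 at chr8:45999851-46000100 on the minus strand, Egln3 at chr12:54203875-54204124 on the minus strand, and Slc2a1 at chr4:119108495-119108744 on the plus strand.
Bnip3: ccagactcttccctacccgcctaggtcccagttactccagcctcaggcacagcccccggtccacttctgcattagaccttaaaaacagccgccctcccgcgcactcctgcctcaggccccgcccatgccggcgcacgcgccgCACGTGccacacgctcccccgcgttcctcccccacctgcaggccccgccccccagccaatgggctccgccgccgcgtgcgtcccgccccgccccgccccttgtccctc
Ankrd37: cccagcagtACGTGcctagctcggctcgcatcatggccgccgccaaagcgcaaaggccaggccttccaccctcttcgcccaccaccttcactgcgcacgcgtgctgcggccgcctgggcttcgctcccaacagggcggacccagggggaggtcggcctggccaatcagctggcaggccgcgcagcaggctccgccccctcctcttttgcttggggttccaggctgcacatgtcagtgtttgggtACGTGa
Egln3: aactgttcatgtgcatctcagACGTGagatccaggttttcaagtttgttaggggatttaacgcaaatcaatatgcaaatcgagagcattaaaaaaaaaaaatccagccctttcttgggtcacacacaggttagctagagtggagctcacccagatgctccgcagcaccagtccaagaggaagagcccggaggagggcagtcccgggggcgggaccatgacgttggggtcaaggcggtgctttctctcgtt
Slc2a1: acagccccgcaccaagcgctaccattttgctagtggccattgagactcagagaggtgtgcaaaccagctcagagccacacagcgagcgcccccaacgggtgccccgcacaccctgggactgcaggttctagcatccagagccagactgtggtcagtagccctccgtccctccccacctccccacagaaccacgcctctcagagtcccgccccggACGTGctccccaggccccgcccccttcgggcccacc
In Ankrd37 a match starts 6 bases before the gene start, and in Slc2a1 36 bases before it.

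Some stress and cell cycle genes rose. Of 16 tested ATF4/amino acid stress genes, 4 were called higher, against 2.29% of all genes, and none lower, with a median log2 fold change of 0.22. Sesn2, a sestrin induced by stress, rose from 74.3 and 59.0 CPM to 174 and 207 CPM (log2 fold change 1.52 ± 0.16, adjusted p = 1.7e-06). Mthfd2, a mitochondrial folate enzyme, rose from 74.3 and 56.1 CPM to 165 and 168 CPM (log2 fold change 1.36 ± 0.19, adjusted p = 2.2e-05), and Slc7a5, an amino acid transporter, from 263 and 179 CPM to 480 and 490 CPM (log2 fold change 1.13 ± 0.17, adjusted p = 5.4e-05). Trib3 had a log2 fold change of 1.46 ± 0.30 (adjusted p = 0.00096). Without undifferentiated replicate 2 the list had 1 called member, Sesn2, and Mthfd2, Slc7a5, and Trib3 had adjusted p of 0.0018, 0.0029, and 0.034. Trib3 was also lost on removal of each of the other 3 libraries, with adjusted p from 0.0024 to 0.0068, and Slc7a5 with the GC offset, at 0.95.

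Of 12 p53 targets 2 were called higher, against 2.29% of all genes, with a median log2 fold change of 0.54. Cdkn1a, which encodes the cell cycle inhibitor p21, rose from 17.8 and 15.8 CPM to 48.0 and 46.8 CPM (log2 fold change 1.5 ± 0.17, adjusted p = 3.5e-06), and Plk2, a polo-like kinase, from 11.5 and 10.5 CPM to 29.9 and 29.1 CPM (log2 fold change 1.43 ± 0.12, adjusted p = 1.8e-07). Cdkn1c, which encodes the related inhibitor p57, fell from 94.0 and 82.3 CPM to 36.6 and 35.6 CPM (log2 fold change −1.29 ± 0.18, adjusted p = 2.5e-05), though without 5 h replicate 2 its adjusted p was 0.0011. Of 15 S phase genes 1 was called higher, Cdc6, at 1.01 ± 0.10, against 2.29% of all genes, and the list had a median of 0.57. Without undifferentiated replicate 1, 5 of the 15 were called higher, with a median of 0.78. Of 15 G2/M genes 1 was called higher, Aurka, at 1.01 ± 0.12, against the same 2.29%. Without undifferentiated replicate 2 neither Cdc6, at 0.93, nor Aurka, at 0.78, was called, and with the GC offset both were at 0.90. Cdc6 was also lost without 5 h replicate 2, at 0.98, and Aurka without 5 h replicate 1, at 0.97.

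The largest rises included genes of several kinds. Sall3, a zinc finger repressor, rose from 7.78 and 5.2 CPM to 42.7 and 49.4 CPM (log2 fold change 2.84 ± 0.19, adjusted p = 5.8e-09). Jag1, a Notch ligand, rose from 9.36 and 7.5 CPM to 34.2 and 32.2 CPM (log2 fold change 1.98 ± 0.13, adjusted p = 5.2e-09). It was the 1 called gene of 9 tested Notch/Hes genes, against 4.13% of all genes. Mcc, linked to colorectal cancer, rose from 6.21 and 6.47 CPM to 29.1 and 31.8 CPM (log2 fold change 2.26 ± 0.13, adjusted p = 8.7e-10), and its replicates were tight in both groups. Hmox1, heme oxygenase, rose from 62.0 and 44.6 CPM to 240 and 245 CPM (log2 fold change 2.19 ± 0.30, adjusted p = 2e-05), with an adjusted p of 0.0018 without undifferentiated replicate 2. The remaining named rises, Arhgef26, Cachd1, Gm20362, Zbed3, and Msln, had log2 fold changes between 2.03 and 2.55, and Msln was not called without undifferentiated replicate 1 or 2 or 5 h replicate 2, with adjusted p of 0.0017, 0.0028, and 0.0016.

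Of the largest falls, Ccng2, an atypical cyclin, went from 21.5 and 25.2 CPM to 3.34 and 2.51 CPM (log2 fold change −2.98 ± 0.18, adjusted p = 1.5e-09). Aire, the autoimmune regulator gene, went from 24.7 and 32.7 CPM to 5.33 and 4.39 CPM (log2 fold change −2.56 ± 0.26, adjusted p = 9.7e-07). Grin1, Synpo, Ankrd34a, Dgki, Platr11, and 2610509F24Rik were below 10 CPM in all libraries and fell by 2.73 to 4.21 on the log2 scale. Of these 6, Dgki, Platr11, and 2610509F24Rik were lost without undifferentiated replicate 2 or either 5 h library, with adjusted p from 0.0011 to 0.0056, and Ankrd34a without 5 h replicate 1 (adjusted p = 0.0024).

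Markers of other cell types were mostly not called. Of all genes tested, 2.29% were called higher and 1.84% lower, which are the shares to set beside the list counts that follow. No gene was called among 7 tested neural, 8 definitive endoderm, 2 fibroblast, and 2 2-cell-like genes, of lists with 10, 10, 8, and 9 members. The summed level of the neural list was 80.1 to 97.7 CPM before and 129.5 to 133 CPM at 5 h, and that of the definitive endoderm list 13.6 to 17.3 and 21.1 to 21.8 CPM. The fibroblast list summed to 7.2 to 11.7 CPM over the 4 libraries, with Col3a1, Postn, and Lum at 0 counts in all. The extraembryonic endoderm list was higher, with sums of 438 and 361 CPM before and 472 and 513 CPM at 5 h. Of its 12 tested genes Sparc was called, at 1.00 ± 0.15, with Afp and Ttr at 0 counts in all 4 libraries, and it was not called without undifferentiated replicate 2, at 0.84. Of 10 trophoblast genes Cdx2 was called. No gene was called among 7 retinoic acid response, 8 heat shock, and 13 epithelial-mesenchymal transition genes, with medians of −0.43, −0.17, and 0.59. Of 20 sterol synthesis genes Msmo1, a sterol oxidase, was called lower at −1.09 ± 0.18, and it was lost with the GC offset and without undifferentiated or 5 h replicate 2. None of 10 PRC2 subunit genes was called, and Mtf2, Jarid2, and Eed had log2 fold changes of −0.61 ± 0.15, 0.64 ± 0.12, and −0.58 ± 0.12, with Mtf2 at 0.01 with the GC offset. Of 13 mitochondrially encoded genes mt-Co2 was called lower, at −1.39 ± 0.29. The median of those 13 was −0.35, and mt-Co2 was at 153 and 264 CPM in the undifferentiated libraries and was lost with the GC offset and on removal of undifferentiated replicate 2 (adjusted p = 0.046) or of 5 h replicate 1 (adjusted p = 0.011) or 2 (adjusted p = 0.016).

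The later WT libraries place the 5 h values in time, as levels with no test. Axin2 was at 139 and 146 CPM at 24 h and at 17.9 and 17.0 CPM at 48 h, so the 5 h level lay between the undifferentiated and 24 h levels. T, at most 1.67 CPM at 5 h, was at 55.6 and 59.8 CPM at 24 h and at 0.0654 CPM or less at 48 h. Nodal was about as high at 5 h as at 24 h, with 65.8 and 66.3 CPM at 24 h. Id3 was at 24.1 and 20.0 CPM at 24 h and at 123 and 135 CPM at 48 h. Bnip3 stayed low, with 4.79 and 3.43 CPM at 24 h and 15.6 and 10.5 CPM at 48 h, while Slc2a1 was at 88.2 and 80.2 CPM and then at 248 and 264 CPM. Socs3 was lower still at 48 h, with 4.44 and 6.52 CPM. Esrrb, at 665 and 687 CPM at 5 h, was at 507 and 499 CPM at 24 h and at 176 and 215 CPM at 48 h.

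**Figure D4:**
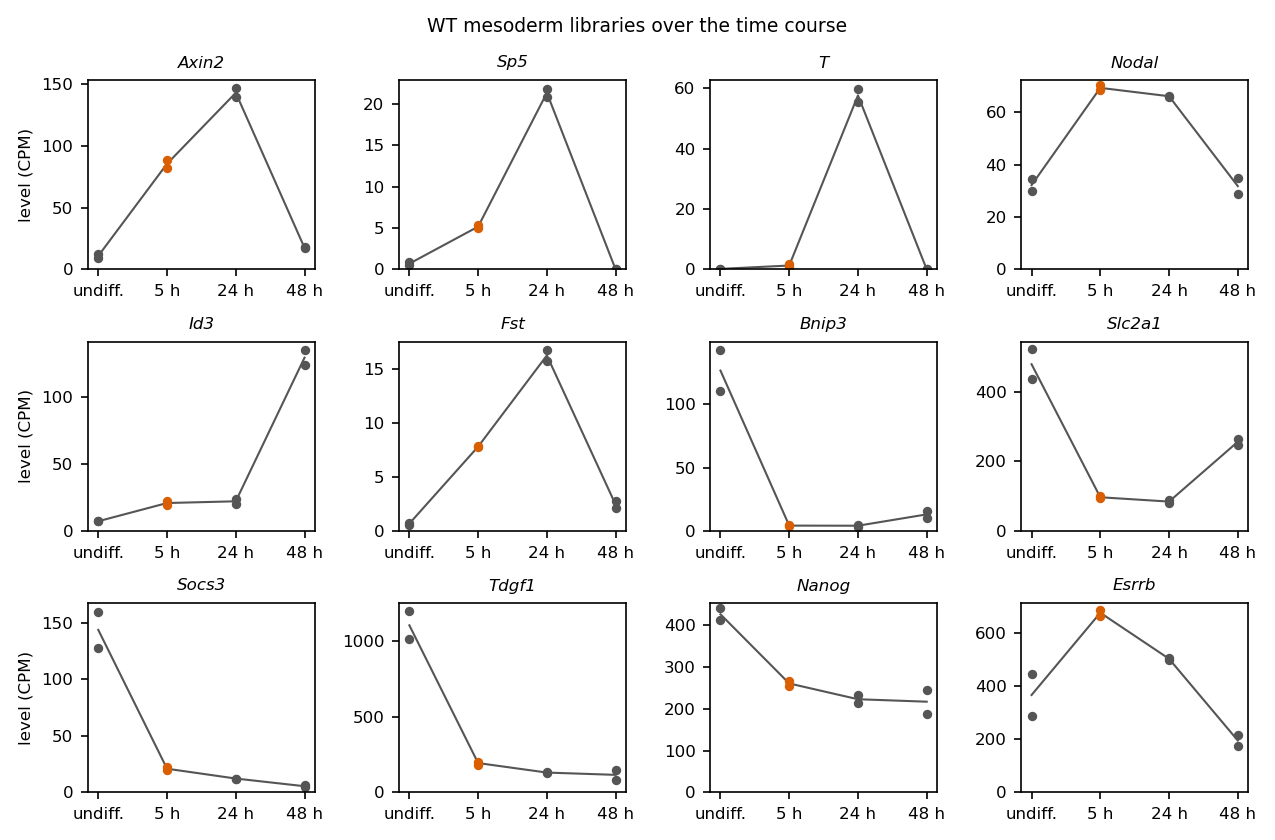
Level in CPM of 12 genes in the WT mesoderm libraries, undifferentiated and at 5, 24, and 48 h, with points for the 2 libraries of each time, the 5 h points in orange, and lines through the means. Axin2, Sp5, T, and Fst are highest at 24 h, while Bnip3, Socs3, and Tdgf1 are highest before differentiation.

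In the endoderm series, WT cells were given the anterior primitive streak medium, with Activin A, CHIR99021, and FGF2 but no BMP4. The study gives this medium a lower dose of CHIR99021 and another dose of Activin A than the mid primitive streak medium. The absence of BMP4 and these doses cannot be told apart in differences between the series. At 5 h, 188 of 19261 genes were called higher (0.976%) and 217 lower (1.13%), or 405 in all (2.1%). Since the undifferentiated libraries of the series deviated together, the values of both series are set side by side and no overlap is given as support. Axin2 had log2 fold changes of 2.97 in the mesoderm and 2.19 in the endoderm series, Sp5 of 2.89 and 1.82, Fst of 3.49 and 3.80, Bnip3 of −4.92 and −4.77, Slc2a1 of −2.31 and −2.47, and Socs3 of −2.77 and −3.41. Id1, the BMP target, had −0.82 in the mesoderm series and −2.12 in the endoderm series. The difference for Id1 was 1.28 ± 0.28, with an adjusted p of 0.098 in a fit over all 48 libraries. That fit took the undifferentiated libraries of the series as independent, although they deviated together, so its errors and p-values are given with that limit.

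In that fit 1 of 19601 genes differed between the series at the limits (0.0051%), while 1474 had an unadjusted p under 0.05. The gene was Ppp1r10, which encodes a subunit that directs protein phosphatase 1 to the nucleus. It was at 81.0 and 59.0 CPM before and 41.5 and 40.2 CPM at 5 h in the mesoderm series, and at 79.3 and 63.0 CPM before and 102 and 104 CPM at 5 h in the endoderm series. The difference in its log2 fold change was −1.33 ± 0.17 (adjusted p = 0.0002). The Axin2 difference of 0.76 ± 0.24 had an adjusted p of 0.38. Without WT undifferentiated replicate 1 or 5 h replicate 2 no gene differed at the limits, and without undifferentiated replicate 2 there were 2.

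Mtf2 null and Jarid2 null cells, each 1 line, were put through the same 5 h of mesoderm medium with 2 libraries a side, and share no library with the WT comparison. The labels give E14 for each genotype, but the study names other wild-type lines as the matched background of these null lines, so the mutation and the background of the line cannot be told apart in the differences from WT. Mtf2 was at 31.4 to 38.2 CPM in the Mtf2 null libraries and at 260 to 499 CPM in the WT ones. Jarid2 was at 308 to 622 CPM in the libraries labelled Jarid2 null and at 362 to 661 CPM in the WT ones, so its level does not check that label. In the libraries labelled Jarid2 null 363 genes were called higher (1.98%) and 628 lower (3.42%), or 991 in all (5.4%). Of the 421 genes called higher in WT, 139 were also called higher there, which is 33.0% of the WT list and 38.3% of the other, and of the 338 called lower 171 were, which is 50.6% and 27.2%.

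In Mtf2 null cells 398 genes were called higher (2.17%) and 714 lower (3.89%), or 1112 in all (6.06%). They shared 97 genes called higher with WT, which is 23.0% of the WT list and 24.4% of the other, and 109 called lower, which is 32.2% and 15.3%. The 5 h change differed between Mtf2 null and WT in 384 of 18361 genes (2.09%), of which 88 (0.479%) had the higher and 296 (1.61%) the lower change in the Mtf2 null cells. Without WT undifferentiated replicate 2 the count was 196, and without 5 h replicate 1 or 2 it was 216 and 180. For the libraries labelled Jarid2 null against WT none of 18361 differed at the limits by edgeR, with 3615 at an unadjusted p under 0.05 and 75 called by DESeq2.

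The 5 h change of 4 hypoxia and glycolysis genes was higher in Mtf2 null than in WT cells. In Mtf2 null cells the log2 fold change was −1.09 for Bnip3, −0.79 for Slc2a1, 0.49 for Egln3 and 0.38 for Slc16a3, and the undifferentiated levels of these genes were below those of WT. Bnip3 was at 22.1 and 22.4 CPM before and 10.4 and 10.5 CPM at 5 h, and the difference from the WT change was 3.83 ± 0.33 on the log2 scale (adjusted p = 8e-07). Slc2a1 was at 156 and 175 CPM before and 97.7 and 94.2 CPM at 5 h, close to the 93.5 and 99.8 CPM of WT at 5 h, and the difference was 1.52 ± 0.15 (adjusted p = 4.3e-06). Slc16a3 was at 11.0 and 11.4 CPM before and 15.2 and 13.9 CPM at 5 h (difference 3.62 ± 0.28, adjusted p = 4e-07), and Egln3 at 8.22 and 7.46 CPM before and 10.6 and 11.4 CPM at 5 h (difference 3.49 ± 0.29, adjusted p = 5.8e-07). In the Jarid2 null libraries Bnip3 was at 22.1 and 32.8 CPM before and 4.82 and 5.24 CPM at 5 h, a difference of 2.48 from WT that was outside the limit (adjusted p = 0.002). Of the glycolysis and hypoxia list, 3 genes were called lower and 1 higher in Mtf2 null cells, and 4 were called lower in the libraries labelled Jarid2 null, against 7 in WT.

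Axin2 rose further in Mtf2 null than in WT cells, from 3.55 and 4.35 CPM to 103 and 102 CPM, with a difference of 1.73 ± 0.20 (adjusted p = 1.2e-05). Id1 was at 36.3 and 52.4 CPM before and 82.6 and 91.6 CPM at 5 h in Mtf2 null cells, where WT Id1 was lower at 5 h than before, and the difference was 1.80 ± 0.22 (adjusted p = 2.5e-05). Klf4 and Esrrb, which were not called in WT, differed by −1.61 ± 0.21 and −1.41 ± 0.23 (adjusted p = 5.7e-05 and 0.00038). Klf4 was at 336 and 338 CPM before and 145 and 123 CPM at 5 h in Mtf2 null cells. Socs3 fell in every genotype, with log2 fold changes of −2.77 in WT, −2.70 in the libraries labelled Jarid2 null, and −2.04 in Mtf2 null cells, and the last difference did not pass the limits (adjusted p = 0.022).

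**Figure D5:**
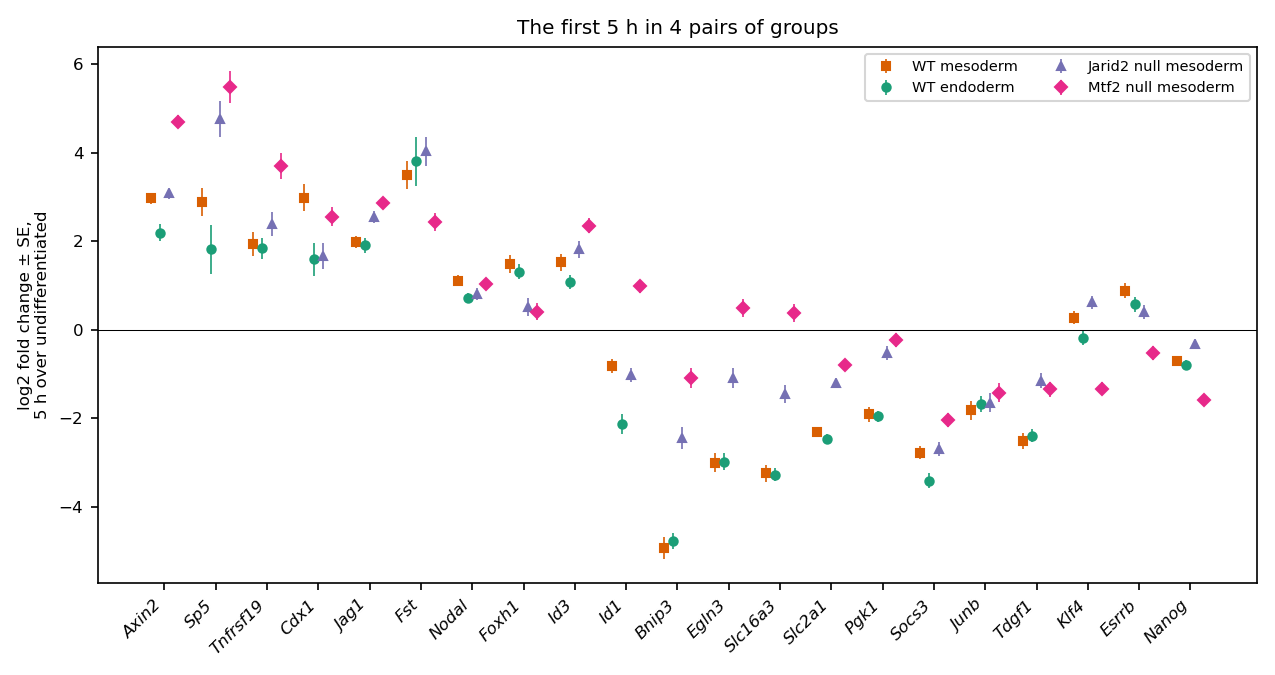
Log2 fold change ± SE at 5 h over undifferentiated of 21 genes in WT mesoderm (squares), WT endoderm (circles), Jarid2 null mesoderm (triangles), and Mtf2 null mesoderm (diamonds), each from 2 libraries a side. For Bnip3, Egln3, Slc16a3, and Slc2a1 the WT points of both series lie lowest and the Mtf2 null points highest.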

How the data were processed

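RNA was depleted of ribosomal RNA, sequenced on a NextSeq and quantified by the authors, whose processing notes name CASAVA, Bowtie2, HTSeq, Salmon and DESeq2, with GRCm38/mm10 as build. The deposited values are estimated counts per gene, which the authors made with Salmon; these expected counts were rounded to whole numbers here. The authors' own comparisons were not used. Counts of the 24 mesoderm libraries were fitted together with edgeR 4.0.16 (R 4.3.3, limma 3.58.1) after filterByExpr (minimum count 10, total 15), with TMM scaling and the quasi-likelihood test. Calls needed both limits, 0.001 on the p adjusted by Benjamini-Hochberg and 1 on the size of the log2 fold change. SE is the log2 fold change over the root of F. CPM use the library totals scaled by TMM. DESeq2 1.42.0 was an alternative. A gene that a setting did not test, or that DESeq2 left without an adjusted p, was not counted as lost there. The steps were tested on counts simulated for the WT mesoderm comparison. Of 100 genes changed 2-fold, a change at the fold limit, 58% passed the adjusted p and 31% were called. Of 100 genes changed 4-fold, 86% were called. A gene that was not called may thus have changed. The changed genes were drawn from those above 1 CPM, and no GC shift between libraries was simulated. These shares therefore do not cover genes below that level or such shifts. Genes were named by a rule: fixed anchors, the 4 largest called members of each list, the 15 largest calls in each direction and the 5 largest of each interaction, at 5 CPM or more. The members and lists were chosen with earlier results of these data known. The ACGTG motif and the GC offset were added after seeing the data. Promoters are from RefSeq. Intervals cover counting error only.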

Additional observations from a re-analysis of the deposited data

Results flagged for a closer look

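A difference between groups in the 5 h change, by the interaction term of the edgeR fit, brought out each result here. Between the WT mesoderm and endoderm series Ppp1r10 differed by −1.33 on the log2 scale. Between Mtf2 null and WT mesoderm, the change was higher in Mtf2 null cells for Bnip3 by 3.83, Slc16a3 by 3.62, Zfp773 by 3.51, Egln3 by 3.49, Cdkn1c by 2.80, Ier3 by 2.58, Aire by 2.22, Zic5 by 2.08, Id1 by 1.80, Axin2 by 1.73, Slc2a1 by 1.52 and Ccng2 by 1.45. The difference was −4.37 for Itpr2, −3.59 for Ly6g6e, −3.23 for Adgrd1, −3.16 for 2310043M15Rik, −2.86 for Gm20362, −1.61 for Klf4, −1.41 for Esrrb and −1.0 for Jarid2. Groups of 2 libraries were not tested for a single library far from the others.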

How the results depend on the processing

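The WT counts of 421 higher and 338 lower became 206 and 452 with library totals, 527 and 643 without the low-count filter, 91 and 76 in a fit of the 4 WT libraries alone, 167 and 132 with the 8 WT mesoderm libraries, 3874 and 2843 at an adjusted p under 0.05 with no fold limit, and 11 and 24 with glmTreat. Leaving out 1 library gave 135 to 906 higher and 121 to 306 lower. The replicate block gave 416 higher and 329 lower, and DESeq2 435 and 308. Within the mesoderm series, 6 of 66 pairs of groups had a correlation of deviations over 0.1, with a range from −0.18 to 0.27. WT 5 h and undifferentiated libraries had −0.016, so their replicate numbers were not taken as pairs in the main fit. Of the 57 named genes called, 37 kept the call without undifferentiated replicate 2, 47 with the GC offset and 54 with the block, which lost Dnmt3b, Trib3 and mt-Co2. Without the low-count filter the endoderm count went from 405 to 672, the series difference from 1 to 78, the Mtf2 null difference from 384 to 785 and the Jarid2 null difference from 0 to 347. The Jarid2 null difference was 75 with DESeq2, 3 with library totals and 6 with the GC offset. Leaving out 1 WT library gave 0 to 2 genes for the series, 180 to 554 for Mtf2 null and 0 to 1 for Jarid2 null. No named gene that was called changed sign, while Lefty1, Dusp6, Fos, Sox2, Otx2 and Mtf2, which were not called, did under at least 1 setting, and the balance of calls turned, from 55.5% higher to 31.3% with library totals, 46.3% with the GC offset and 40.2% with the stricter filter. With library totals the medians of the Nodal, BMP and formative lists went from 0.07, 0.08 and 0.10 to −0.06, −0.03 and −0.03, and without undifferentiated replicate 1 that of the LIF list went from −0.20 to 0.09. The cause of these moves was not tested.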

Other observations

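The genes in this part were chosen after their values were seen. They belong to no list and no other genes of their kinds were counted. The metallothionein gene Mt1 was at 41.7 and 32.6 CPM before and 173 and 158 CPM at 5 h (log2 fold change 2.16 ± 0.23), and Mt2 had a log2 fold change of 1.68 ± 0.20. The zinc transporter genes Slc30a1 and Slc30a2 had 1.38 ± 0.17 and 1.69 ± 0.20.

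Some genes that fell encode enzymes of glycolysis or collagen modification. Pgm1, phosphoglucomutase, was at 39.8 and 34.5 CPM before and 6.77 and 8.25 CPM at 5 h (log2 fold change −2.31 ± 0.17), and Tpi1, triosephosphate isomerase, had −1.83 ± 0.13. The collagen-modifying enzyme genes Loxl2, P4ha1 and Plod2 had −1.99 ± 0.15, −1.59 ± 0.14 and −1.42 ± 0.13. Fam162a and the mitophagy receptor gene Bnip3l had −1.57 ± 0.17 and −1.31 ± 0.13. Polr2a, the largest subunit of RNA polymerase II, was at 243 and 158 CPM before and 611 and 669 CPM at 5 h (log2 fold change 1.67 ± 0.17), and Rbm14, Sf3a2 and Upf1 had 1.62 ± 0.13, 1.58 ± 0.15 and 1.57 ± 0.15. Inhbb, an activin subunit, and Igfbp2, an IGF binding protein, fell by 1.64 ± 0.19 and 1.93 ± 0.17 on the log2 scale. These genes were chosen among the called genes that no setting lost. The settings were DESeq2, RLE scaling, the GC offset, the replicate block and the removal of each of the 4 libraries. That they kept their calls is thus part of the choice and no separate result. A gene without an adjusted p under a setting was not counted as lost there.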
